A study of Mus musculus with 5 samples.

Results

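Complement C3 and 7 further complement genes (C2, C4b, Cfb, Cfi, Cd55, Cd59a and Serping1) were followed in mouse hepatobiliary organoids, self-renewing epithelial cultures grown here from primary wild-type liver stem/progenitor cells. They are 8 of the 52029 genes in the deposited 4-library table, and all 8 were also found by symbol in the separate table of 1 more library. The 8 genes were selected on complement function with the measured differences between co-cultures and organoids alone already known, so their levels and differences are given as a description. Total RNA was sequenced from 3 libraries of organoids co-cultured with liver endothelial cells at passage 8 and from 2 libraries of organoids alone at passage 1, all at day 10. Culture with endothelial cells and passage therefore cannot be told apart in any difference given here. The study's question was which signals from endothelial cells bear on how the progenitors survive and proliferate. All cultures received EGF, the small molecule Y-27632, heparin and endothelial cell growth supplement, and whether libraries of 1 group came from separate cultures or animals is not in the labels. The co-culture libraries M9 and M10 and the alone libraries M11 and M12 share 1 table, and the third co-culture library was counted on another gene annotation.

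Complement is a cascade of plasma proteins that tags surfaces with fragments of C3 and can end in a membrane pore. The classical and lectin pathways cleave C4 and C2 into a C3 convertase, whereas the alternative pathway forms its convertase from C3b and factor B. Regulators stop the cascade: C1 inhibitor (Serping1) blocks the initiating proteases, factor I (Cfi) degrades C3b and C4b, CD55 breaks up convertases on the cell surface and CD59 stops the pore. The liver is the main source of the plasma components, and C3 and Cfb are induced by inflammatory cytokines in epithelium as well.

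Library totals ranged from 33881617 to 58853737 counts in the co-cultures and from 26466739 to 29195328 for organoids alone. The third co-culture library stood apart, with 6.04% of its counts from mitochondrial genes, against 2.46% in M9, 2.32% in M10, 2.80% in M11 and 2.31% in M12, so its values are given apart from those of M9 and M10. Levels are given as CPM, the depth-scaled read count, scaled here over all 5 libraries, and levels set across the 2 tables carry their difference in annotation. The 8 cholangiocyte markers, among them Krt7, Krt19, Epcam and Sox9, had counts in every library, with a summed level of 6680 to 10429 CPM (marker sums are per library total) in the co-cultures and 7246 to 8756 in the organoids alone. EdgeR called Krt7 and Krt19 higher in M9 and M10 (log2 fold change 1.11 and 1.145, adjusted p = 0.0303 and 0.0436) and did not call the other 6. The third co-culture library was below the mean of M11 and M12 for Krt7 and Krt19 (-0.825 and -0.625). The 12 endothelial markers summed to at most 1.77 CPM in the co-cultures and to at most 1.55 in the organoids alone, and only Stab1 passed the low-count filter, so endothelial transcripts were near 0 in libraries of both labels. Clec4g, a liver sinusoidal marker, had 0 counts in every library. Pecam1 had at most 10 counts in any library. In bulk RNA, fewer cells of a type and less RNA per cell cannot be told apart.

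C2, Cfb and C4b are neighbours in the major histocompatibility complex on chromosome 17, with C2 (ENSMUSG00000024371, chr17:34862604-34898265), Cfb (ENSMUSG00000090231, chr17:34856374-34862518) and C4b (ENSMUSG00000073418, chr17:34728380-34743882), all on the minus strand of GRCm38. Their span is 169.9 kb, and C2 and Cfb lie 85 bases apart. C3 (ENSMUSG00000024164) is on the same chromosome but far from them, at chr17:57203970-57228136 on the minus strand. Cfi (ENSMUSG00000058952) is at chr3:129835884-129875332 on the plus strand, and Cd55 (ENSMUSG00000026399) is at chr1:130439027-130462744 on the minus strand. On chromosome 2 lie Cd59a (ENSMUSG00000032679), at chr2:104095801-104115354 on the plus strand, and Serping1 (ENSMUSG00000023224), at chr2:84765387-84775444 on the minus strand. All 8 are annotated as protein coding, and a value covers the whole gene, exons and UTRs together.

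The RefSeq promoter table (GRCm38.p6) matched 3 of the 8 members, C3, Cd55 and Cd59a. The 250 bases before each start are shown because C3 had the largest fitted difference in M9 and M10, while Cd55 and Cd59a are the membrane regulators. Capitals mark matches to 4 motifs searched on both strands: an NF-kB-type motif (GGNNTTTCC, in 4.93% of the 32851 promoter windows of this length), a C/EBP-type motif (TTNNGCAA, 9.56%), a GAS-type motif (TTCNNNGAA, 7.02%) and an ISRE-type motif (GAAANNGAA, 7.13%). A match describes letters and not a bound site.
C3, chr17:57228137-57228386, minus strand: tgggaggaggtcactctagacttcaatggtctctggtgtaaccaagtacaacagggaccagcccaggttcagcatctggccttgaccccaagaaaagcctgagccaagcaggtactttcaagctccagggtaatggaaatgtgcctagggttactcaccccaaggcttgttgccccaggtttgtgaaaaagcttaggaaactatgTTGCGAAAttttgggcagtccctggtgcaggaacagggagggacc
Cd59a, chr2:104095551-104095800, plus strand: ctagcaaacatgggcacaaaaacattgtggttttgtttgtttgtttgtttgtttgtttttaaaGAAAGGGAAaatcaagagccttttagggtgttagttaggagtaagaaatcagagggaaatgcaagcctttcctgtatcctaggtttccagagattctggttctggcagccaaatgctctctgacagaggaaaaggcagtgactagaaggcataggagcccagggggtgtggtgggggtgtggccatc
Cd55, chr1:130462745-130462994, minus strand: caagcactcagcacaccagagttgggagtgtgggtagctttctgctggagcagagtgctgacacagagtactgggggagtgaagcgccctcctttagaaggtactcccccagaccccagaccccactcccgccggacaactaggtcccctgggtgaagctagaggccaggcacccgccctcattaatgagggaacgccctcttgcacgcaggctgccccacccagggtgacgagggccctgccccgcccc
The C3 window held 1 C/EBP-type match on the opposite strand, which begins 45 bases before the start. That of Cd59a held 1 ISRE-type match, which begins 187 bases before the start. The Cd55 window held none of the 4 motifs, and it was the richest in G and C, at 64% against 52% for C3 and 44.8% for Cd59a.

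C3, the protein on which the 3 activation pathways converge, was the most abundant of the 8 genes per length in M11 and M12 and lower in every co-culture library. It was at 65.4 CPM in M9, 14.4 CPM in M10 and 600.1 CPM in the third library of co-cultures, against 1368 CPM in M11 and 2398 in M12. The groups did not overlap, and the third co-culture library lay far closer to the organoids alone than M9 and M10 did. The log2 fold change of M9 and M10 against M11 and M12 was -5.57 ± 0.81 (SE, edgeR, 2 libraries each), and the third co-culture library differed from the mean of the organoids alone by -1.59. M9 and M10 differed from each other by 2.18 on the log2 scale, a gap reached by 2.43% of the tested genes. Without M9 the fold change was -7.03 and without M10 it was -4.85.

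Cfb encodes factor B, the protease subunit of the alternative pathway convertase. Its level was 228 CPM in M9, 196 CPM in M10 and 447 CPM in the third library of co-cultures, against 312 in M11 and 316 in M12. M9 and M10 were below the organoids alone and the third library was above them. The alone libraries were nearly equal, with 98.8% of tested genes showing a gap at least as large. The log2 fold change of M9 and M10 was -0.57 ± 0.15 (SE), and the third co-culture library was 0.51 above the mean of the organoids alone.

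**Figure D1:**
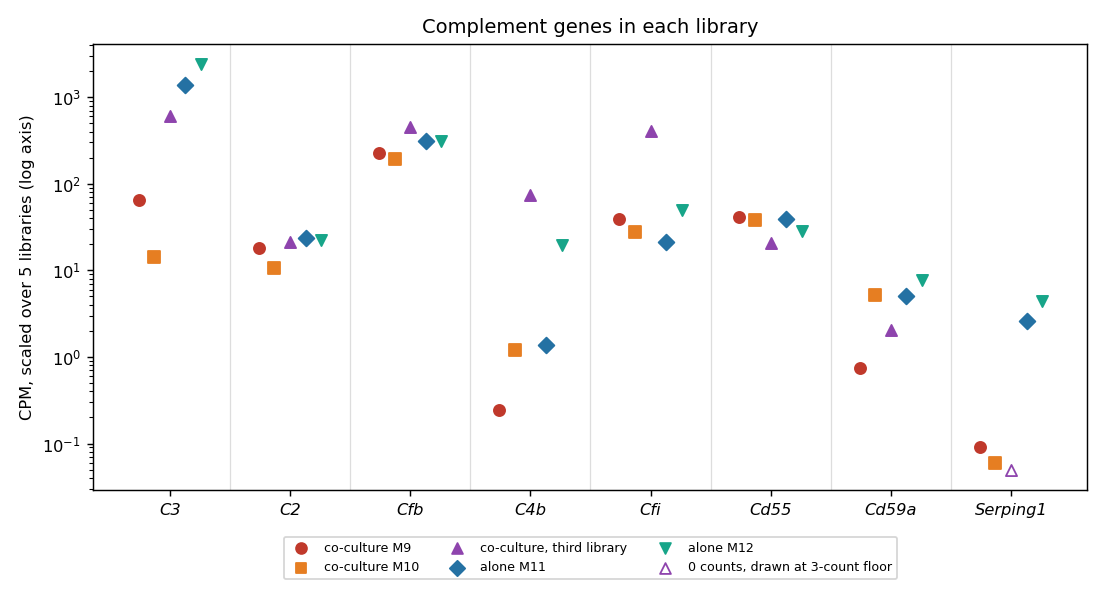
Level of each of the 8 complement genes in each library, in CPM scaled over 5 libraries on a log axis; each point is 1 library, and the open triangle stands at the floor of 3 counts because Serping1 had 0 counts there. C3 and Serping1 lie lower in all 3 co-culture libraries than in M11 and M12, while C4b and Cfi are highest in the third co-culture library (74.8 and 409 CPM).

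C2, the protease subunit of the classical and lectin pathway convertase, was at 18.3 CPM in M9, 10.7 CPM in M10 and 21.4 CPM in the third library of co-cultures, against 23.5 in M11 and 22.2 in M12. All 3 co-culture values were below both alone values, the third by less than 1 CPM. The log2 fold change of M9 and M10 was -0.66 ± 0.30 (SE), and the third co-culture library was at -0.10. C2 lies across Zbtb12, a gene of the opposite strand, and the annotation holds a fused transcript of C2 and Cfb, Gm20547, which had 42 counts in M12 and 0 in the other libraries of that table. No source used here states whether the counting used strand, so part of the C2 count could belong to Zbtb12.

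C4b, a carrier of the thioester that binds C4 fragments to surfaces, differed more between the alone libraries than the 7 others did. It was at 0.246 CPM in M9, 1.19 CPM in M10 and 74.8 CPM in the third library of co-cultures, against 1.36 in M11 and 19.8 in M12. The co-cultures held the lowest and the highest value, and M10 and M11 were nearly alike. The gap of 3.79 on the log2 scale between M12 and M11 was reached by 0.126% of the tested genes. Against the organoids alone, the log2 fold change was -3.87 ± 1.34 (SE) in M9 and M10, -0.93 without M12, and the third co-culture library was 3.82 above. The estimated counts of C4b were not whole and C4a is a near-identical neighbour, so the split between them is uncertain. C4a was at 1.29, 2.08 and 6.42 CPM in M9, M10 and the third co-culture library and at 0.905 and 1.14 in M11 and M12.

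Serping1, the inhibitor of the C1 proteases and of plasma kallikrein, was present at low level in the organoids alone and nearly missing from the co-cultures. It had 3 counts in M9, 2 counts in M10 and 0 counts in the third library of co-cultures, against 69 counts in M11 and 126 counts in M12. These were 0.0922, 0.0594 and 0 CPM in the co-cultures and 2.60 and 4.48 CPM in the organoids alone, with no overlap. Per total count, M9 and M10 together were lower by a ratio of 48.9 (organoids alone over co-culture, exact binomial 95% interval 20.6 to 152, counting error only). The third co-culture library was at least 71.5-fold lower than the mean of M11 and M12, with its 0 counts set to a floor of 3 counts in that library.

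Cfi encodes factor I, the protease that inactivates C3b and C4b. Its level was 39.1 CPM in M9, 27.4 CPM in M10 and 409 CPM in the third library of co-cultures, against 21.0 in M11 and 49.3 in M12. M9 and M10 lay between the alone libraries, whereas the third co-culture library was above every other library. M9 and M10 had a log2 fold change of -0.09 ± 0.42 (SE), and the third co-culture library was at 3.66. The alone libraries differed by 1.21 on the log2 scale, a gap reached by 4.77% of tested genes.

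Cd55, which dismantles convertases on the cell's own membrane, was the only member whose log2 fold change was positive in M9 and M10. It was at 40.8 CPM in M9, 37.7 CPM in M10 and 20.7 CPM in the third library of co-cultures, against 38.8 in M11 and 28.8 in M12. M9 and M10 overlapped with the organoids alone, and the third co-culture library was the lowest of the 5. M9 and M10 had a log2 fold change of 0.21 ± 0.21 (SE), and the third library was at -0.69. Its mouse paralogue Cd55b had 21 counts in the third co-culture library and 0 in the other 4.

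Cd59a, the membrane inhibitor of the terminal pore, was at 0.738 CPM in M9, 5.16 CPM in M10 and 2.06 CPM in the third library of co-cultures, against 5.01 in M11 and 7.75 in M12. M10 lay within the range of the organoids alone and the other co-culture libraries lay below it. The co-culture libraries M9 and M10 differed by 2.70 on the log2 scale, as much as 1.18% of tested genes did. The log2 fold change was -1.12 ± 0.84 (SE), or -3.10 without M10 and -0.30 without M9, and the third co-culture library was at -1.57. The paralogue Cd59b had at most 22 counts in any library.

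All 8 genes passed the low-count filter. In edgeR's quasi-likelihood test over all 15899 genes tested, with Benjamini-Hochberg adjustment at 0.05, 2 of the 8 were called, C3 and Serping1, both lower in M9 and M10. Over all genes 2.24% were called, 0.994% higher and 1.25% lower. Because the genes were chosen from this same contrast, nothing is read from that count. Both calls were lost without M11 and without M12, and with the third co-culture library added. Cfb and C2 were called lower without M9, and Cd59a was called lower without M10. DESeq2 called C3, Serping1 and Cfb lower. For 5 of the 8 genes (C3, C2, C4b, Cfb and Serping1) M9 and M10 were both below M11 and M12, as were 25.1% of all tested genes. With the third co-culture library as well, 3 of 8 did not overlap and were lower (C3, C2 and Serping1), as was so for 16.9% of the 14301 genes compared in all 5 libraries. That library was at least 2-fold below the mean of the organoids alone for C3, Cd59a and Serping1, where 18% of genes were, and at least 2-fold above it for C4b and Cfi, where 12.9% were. The median log2 fold change of M9 and M10 was -0.89 over the 8 genes and 0.00 over all genes tested, and the median difference of the third library was -0.39 over the 8 and -0.05 over all genes. Both comparisons share the libraries M11 and M12.

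**Figure D2:**
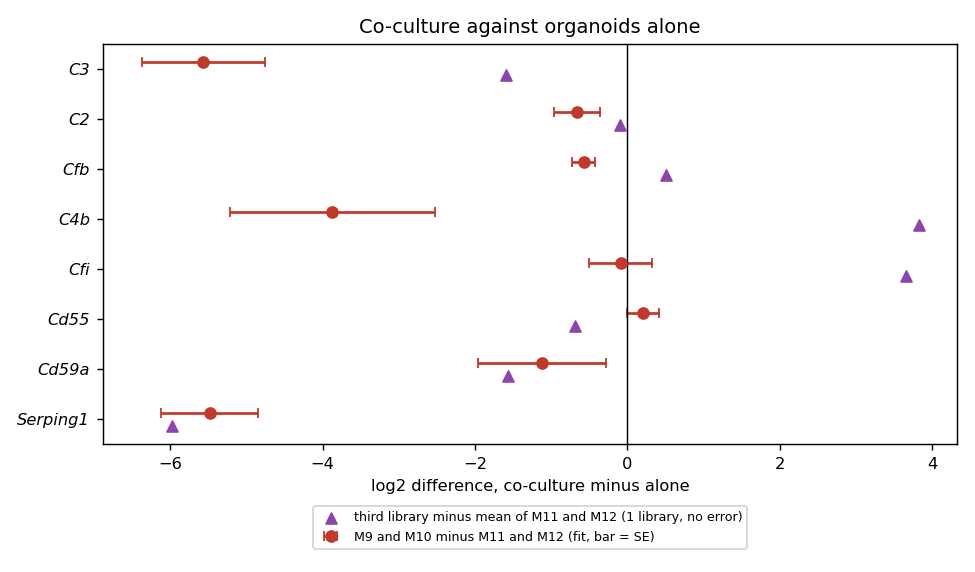
Log2 difference of co-culture minus organoids alone for the 8 genes; circles are the fit of M9 and M10 against M11 and M12 with bars of 1 SE, and triangles are the third co-culture library against the mean of M11 and M12, with no error because it is 1 library. The signs are opposite for C4b (-3.87 and 3.82), Cfb (-0.57 and 0.51), Cfi and Cd55, and both values lie left of 0 for C3, C2, Cd59a and Serping1, where the triangle of Serping1 rests on 0 counts and moves with the prior count.

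Levels of different genes were compared per length within each library, as CPM per kb of merged exon. In the co-cultures Cfb led in M9 and M10, with 64.7% and 70.7% of the summed level of the 8 genes, and C3 held 10.2% and 2.86%. Cfi led in the third co-culture library with 38.1%, ahead of Cfb with 32.8% and C3 with 24.2%. In the organoids alone C3 led, with 65.8% in M11 and 75.0% in M12, and Cfb followed with 27.3% and 18.0%. The C3 to Cfb ratio of levels per kb was 0.158 for M9, 0.0404 for M10 and 0.738 for the third library, against 2.41 for M11 and 4.17 for M12. That ratio was below 1 in each co-culture library and above it in both libraries of organoids alone. By contrast the ratio of Cfb to its neighbour C2 varied less, at 17.1, 25.0 and 28.7 in M9, M10 and the third co-culture library and 18.2 and 19.5 in M11 and M12. The Cfi to C3 ratio was 1.39 in M9, higher in M10 and 1.58 in the third library of co-cultures, against 0.0356 in M11 and 0.0477 in M12. The Cfi to Cd55 ratio was 43.2 in the third co-culture library, where Cfi was high and Cd55 low, and between 1.59 and 2.09 in M9 and M10 against 1.18 and 3.74 in M11 and M12. Serping1, Cd59a and C4b together never exceeded the level of Cfb.

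**Figure D3:**
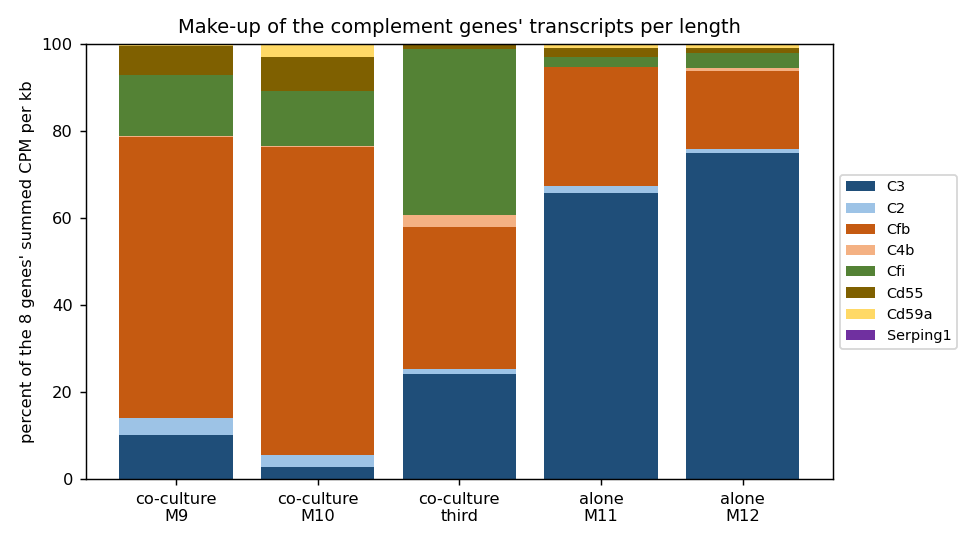
Share of each gene in the summed CPM per kb of the 8 complement genes, in percent, for the 3 co-culture libraries and the 2 libraries of organoids alone; each bar is 1 library. Cfb takes 64.7% and 70.7% in M9 and M10, Cfi takes 38.1% in the third co-culture library, and C3 takes 65.8% and 75.0% in M11 and M12.

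Markers of other cell types that make complement did not all move together. The 12 hepatocyte markers summed to 56.3 CPM in M9, 106 CPM in M10 and 308 CPM in the third library of co-cultures, against 62.0 in M11 and 163 in M12. Ttr (transthyretin) made up most of the sum in every library but M12. It was above the organoids alone in all 3 co-culture libraries, at 57.2, 110.5 and 220.9 CPM against 38.6 and 44.2 in M11 and M12, as was the apolipoprotein gene Apoa1, and neither passed the test (log2 fold change 1.01 and 2.74, adjusted p = 0.188 and 0.136, edgeR). Of the 7 tested, 5 had a negative log2 fold change in M9 and M10 (median over the 7 of -5.03), beside 49.9% of all tested genes. EdgeR called 1 of the 7, the albumin gene Alb, lower there (adjusted p = 0.0186). Alb was at 0.154, 0.267 and 63.5 CPM in M9, M10 and the third co-culture library against 16.7 and 52.3 in M11 and M12. Alb was thus higher in M12 than in M11 and highest in the third co-culture library, as were Ttr, C4b and Cfi. Other hepatocyte markers did not share this pattern. Apoa1 was at 0.151 CPM in M11 and 0.142 in M12. Serpina1b was at 0.132 CPM in the third co-culture library, against 1.62 in M11 and 2.59 in M12. The 12 mesenchymal markers summed to 29.2, 35.8 and 16.3 CPM in the co-cultures and to 37.4 and 96.5 in M11 and M12. Of the 7 tested, 6 had a negative log2 fold change in M9 and M10 (median over the 7 of -4.44), beside 49.9% of all tested genes. EdgeR called 2 of the 7 lower. These were Rgs5, a pericyte gene (log2 fold change -3.50 ± 0.51 SE, adjusted p = 0.0354), and the fibrillar collagen Col3a1 (adjusted p = 0.0371). Most of the sum in M9 and M10 was Reln. Reln had the opposite sign, at 28.3, 34.9 and 7.87 CPM in M9, M10 and the third co-culture library against 10.1 and 14.4 in M11 and M12, and did not pass (log2 fold change 1.36, adjusted p = 0.0661). All 7 lay below the mean of M11 and M12 in the third co-culture library. Rgs5, Col3a1 and Lyz2 were, like C3 and Serping1, lower in each co-culture library than in M11 and M12. So were 16.9% of all genes compared in the 5 libraries. Of the other tested markers some, such as Col1a1, were lower in each as well. Reln was not, and the macrophage marker Csf1r was higher in each. The macrophage-defining genes Adgre1 and Clec4f had 0 counts in every library, and C1qa, C1qb and C1qc had at most 4. Lyz2, a myeloid lysozyme gene, fell (adjusted p = 0.0451), with 4, 2 and 0 counts in M9, M10 and the third library against 240 and 64 in M11 and M12, whereas the other 2 tested macrophage markers had positive values that did not pass, at 0.47 for Csf1r and 0.79 for Cd68 (adjusted p = 0.463 and 0.324). Csf1r made up most of the macrophage sum of 36.3 to 85.8 CPM in the co-cultures and 36.2 to 43.4 in the organoids alone. The part of these cell types in the complement values was not tested.

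The rest of the pathway was described from 49 further complement genes chosen on their textbook roles, of which 18 passed the low-count filter. The list leaves out the members, C3 and Serping1 among them, which were chosen with their differences known. Nothing is therefore read from how few of the list were called. None of the 18 was called by edgeR in either direction, with 4 at an unadjusted p under 0.05, where 17.5% of all tested genes were, and limma-voom called 0. DESeq2 called 1, Clu. Their median log2 fold change was -0.03, and 9 of 18 were negative, as were 49.9% of all tested genes. For the third library of co-cultures, 4 of the 18 were below the mean of M11 and M12, as were 52.5% of all genes compared, and the median difference was 0.46.

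Among the initiating proteases, C1ra, the C1r protease that activates C1s, was at 2.43, 1.96 and 5.69 CPM in the co-cultures and 0.377 and 0.959 in the organoids alone, which is 1.70 ± 0.58 on the log2 scale (SE, edgeR, adjusted p = 0.218). C1ra and C1s1 have close copies, C1rb and C1s2, with which reads may be shared, so their values are uncertain. C1s1, the C1s protease, was at -0.07 ± 0.84 (adjusted p = 0.98). Of the lectin pathway, the protease gene Masp1 was at -0.79 ± 0.59 (adjusted p = 0.566), and Mbl2, a mannose-binding lectin, had 0, 5 and 0 counts in the co-cultures and 24 and 22 in the organoids alone (adjusted p = 0.182). Cfp, which encodes properdin, the stabiliser of the alternative convertase, was at 0.01 ± 0.39 (adjusted p = 0.996). Cfd, the gene of factor D, had 0 counts in every library. The terminal components C6, C7, C8a, C8b and C9 had at most 2 counts in any library, Hc (complement C5) had at most 17, and C8g, which belongs to the lipocalin family, was at 0.94 ± 0.65 (adjusted p = 0.538).

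Of the 18 tested genes, the soluble regulator gene Cfhr2 was farthest above M11 and M12 in the third library of co-cultures. It was at 3.26, 1.84 and 125.5 CPM in the co-cultures and 3.96 and 9.59 in the organoids alone, so its difference was -1.42 ± 0.56 (SE, edgeR, adjusted p = 0.274) for M9 and M10 and 4.33 for the third library. Cfi, Cfhr2 and C4b were thus each highest in that library. Clu (clusterin), which restrains the terminal complex, was at 12908, 12516 and 11854 CPM in the co-cultures and 19593 and 23291 in the organoids alone (-0.76 ± 0.16 SE, adjusted p = 0.0812). C4bp, a cofactor for the degradation of C4b, was at 0.16 ± 0.65 (adjusted p = 0.938), but at -1.23 and called without M9. Among the membrane regulators, Cr1l (the rodent regulator Crry) was at 50.5, 36.7 and 47.9 CPM in the co-cultures and 45.9 and 46.8 in the organoids alone (-0.10 ± 0.21 SE, adjusted p = 0.868). Susd4, a Sushi domain regulator, was at -0.26 ± 0.40 (adjusted p = 0.809), and Cd46 was at 1.72 to 3.79 CPM in the co-cultures and 2.24 to 2.64 in the organoids alone. The anaphylatoxin receptors C3ar1, C5ar1 and C5ar2 had at most 4 counts in any library. The integrin chains of complement receptor 3, Itgam and Itgb2, had at most 59 counts and did not pass the test (adjusted p = 0.946 and 0.336).

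**Figure D4:**
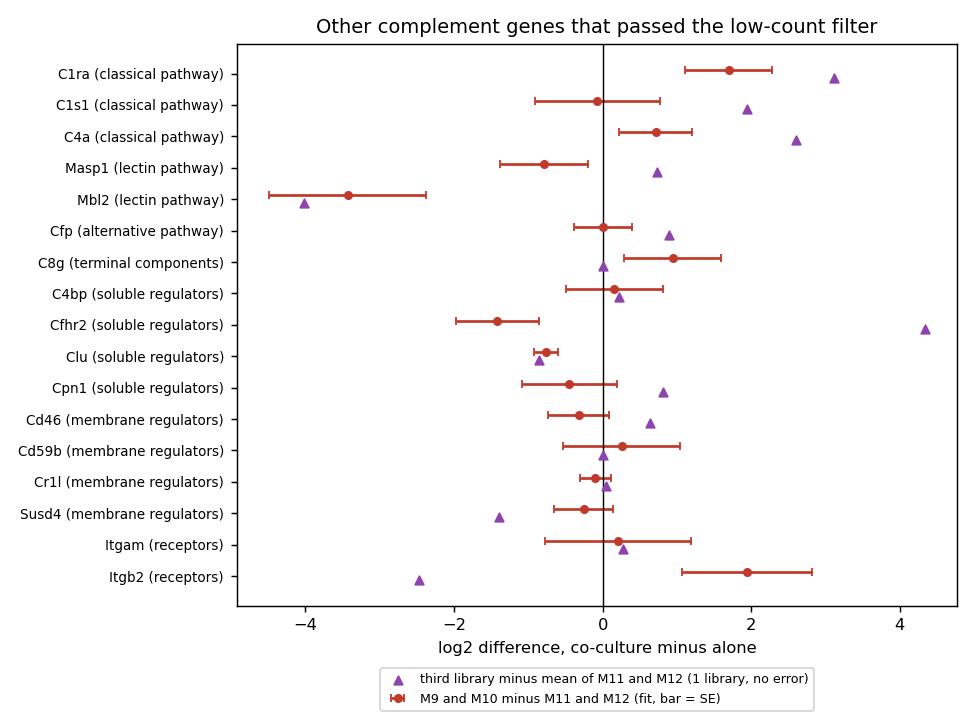
Log2 difference of co-culture minus organoids alone for the further complement genes that passed the low-count filter (1 of the 18 is not shown), grouped by role; circles with 1 SE bars are the fit of M9 and M10 against M11 and M12, and triangles are the third co-culture library against the mean of M11 and M12. Cfhr2 has the triangle farthest to the right (4.33), and those of Mbl2 and Itgb2 rest on 0 counts.

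Of 21 transcription factors, cytokine receptors and feedback genes known to act on complement genes, edgeR called 1, and it was lower in M9 and M10. Over all genes 1.25% were called lower. At an unadjusted p under 0.05 (edgeR) were 7 of the 21, beside 17.5% of all tested genes. Il1r1, the signalling receptor of interleukin 1, was at 73.9 and 74.2 CPM in M9 and M10 and at 160 and 153 in M11 and M12, which is -1.08 ± 0.14 on the log2 scale (SE, adjusted p = 0.0293). Il1r1 was at 361 CPM in the third co-culture library, above every other library, and with that library in the fit the value was 0.14 and not called. The call was also lost without M11 and without M12. Cebpa, which encodes C/EBP alpha, was at 29.3, 38.6 and 36.6 CPM in the co-cultures and 67.8 and 95.4 in the organoids alone, without overlap (-1.27 ± 0.24 SE, adjusted p = 0.0626). Of all genes compared in the 5 libraries, 16.9% were likewise lower in all 3 co-culture libraries. Cebpd was at 9.04, 13.6 and 7.37 CPM in the co-cultures and 20.6 and 27.7 in the organoids alone (-1.10 ± 0.29, adjusted p = 0.137). Cebpb, the other C/EBP gene of the list, overlapped between the groups, at 143, 117 and 54.2 CPM in the co-cultures and 119 and 169.5 in the organoids alone (-0.16 ± 0.22, adjusted p = 0.773). Hnf4a, a hepatocyte nuclear factor, was at 0.30 ± 0.19 (adjusted p = 0.513) and Ifngr1, a chain of the interferon gamma receptor, at -0.01 ± 0.16 (adjusted p = 0.989). Like Cebpa and Cebpd, Nfkb1 and Nfkbia were lower in each co-culture library than in M11 and M12. Socs3 was higher in each. Hnf4a was too, but barely so in the third co-culture library, at 313 CPM against 298 in M11 and 308 in M12. The part of any of these genes in the C3 values was not tested. Over the 21 genes the median was -0.21, and 15 had a negative sign, beside 49.9% of all tested genes.

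The gene neighbourhood of C2, Cfb and C4b was described from the 20 other protein-coding genes within 100 kb of their span, of which 17 were tested. EdgeR called 0 of the 17, with 2 at an unadjusted p under 0.05 beside the 17.5% of all tested genes, and limma-voom called 0, while DESeq2 called Slc44a4 higher and Tnxb lower. Those of highest mean CPM were Hspa1b, a heat shock protein gene, at -0.11 ± 0.24 (SE; adjusted p = 0.869), and Ehmt2, a histone methyltransferase gene, at 0.14 ± 0.15 (adjusted p = 0.691). Hspa1b and Hspa1a are near-identical, so their split is uncertain. In M9 and M10 the neighbours' median was 0.13, against -0.57, -0.66 and -3.87 for Cfb, C2 and C4b. In the third co-culture library the neighbours' median difference was -0.10, against 0.51, -0.10 and 3.82 for Cfb, C2 and C4b. Because the members were chosen with these differences known, nothing is read from this contrast.

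Among 10081 other tested genes whose mean log2 CPM reached 3, those whose pattern over M9, M10, M11 and M12 was most like that of C3 were Tbc1d9, Stox2, Rassf4, Cdh2 and Pde4b. Likeness was the root-mean-square difference of log2 CPM centred on each gene's mean over the 4 libraries, and it was 0.40 for Tbc1d9, 0.65 for Stox2, 0.65 for Rassf4, 0.70 for Cdh2 and 0.75 for Pde4b. Tbc1d9, a gene with a Rab GTPase-activating domain, was at 2.09, 0.534 and 4.16 CPM in M9, M10 and the third co-culture library, against 28.8 and 54.7 in M11 and M12. Cdh2, which encodes N-cadherin, was at 0.461, 0.356 and 0.742 CPM in the co-cultures and 20.8 and 25.1 in the organoids alone. The measure of likeness did not use the third co-culture library, but it did use M11 and M12. The third library's differences from the mean of M11 and M12 were -3.24 for Tbc1d9, -5.10 for Stox2, -1.93 for Rassf4, -4.84 for Cdh2 and -4.82 for Pde4b, each below the -1.59 of C3. Because the genes were picked as high in M11 and M12, these differences are not independent of that choice.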

How the data were processed

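Per the labels' protocols, a stranded total RNA kit with removal of ribosomal RNA was used. The submitters' processing notes name StringTie 2.1.3b, Bowtie2 2.3.4.1, HISAT2 2.1.0, FastQC 0.11.7 and Trimmomatic 0.38, with mm10 and GRCh37 as builds. What each did, which program counted reads and on which annotation is not given in the sources used here. The authors deposited estimated counts for 4 libraries, per the file headers, in 73925 rows that repeat 52029 genes by transcript biotype; 1 row was kept per gene and estimated counts were rounded before testing. The column names give the group but no sample. Whole-number counts per RefSeq gene, deposited separately, cover the third library of co-cultures and were joined here by symbol for 30844 genes (97.7% of its counts). Its columns carry another library number than the record, which was followed.

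M9 and M10 were tested against M11 and M12 in R 4.3.3 by the robust quasi-likelihood test of edgeR 4.0.16 after filterByExpr and TMM scaling, at a Benjamini-Hochberg adjusted p of 0.05. The common dispersion was 0.07. Each standard error (SE) is the size of the log2 fold change over the root of its F statistic. CPM and the third library's log2 differences (prior count 2, no test) are TMM-scaled over 5 libraries, while marker sums are per library total. The 95% exact binomial interval and the floor of 3 counts cover counting error only. The p-values rest on the spread among these libraries, possibly technical. The test was also run on simulated counts, drawn with the common dispersion for every gene. Such counts lack the gene-specific spread of these libraries, so nothing is read from that run. Members and lists were chosen with earlier results of these data known. Genes named were all 8 members, every called gene and the 2 (for markers, up to 3) most abundant of each list, and the 5 genes most like C3. Others were named to give counts at or near 0, to describe the third library, for the C/EBP-type motif or because their groups did not overlap. They were chosen after their values were seen, and not every gene the rule took is printed. DESeq2 1.42.0, limma-voom (limma 3.58.1), other scalings and low-count filters, fits without each library in turn and a fit of all 5 were the alternatives. Levels per length are counts over the library total and the merged exon length, the same length in all libraries. Positions and exon lengths are from GENCODE M21 (GRCm38). Items withheld from this text are not reported here, though counts, medians and sums over a list include them.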

Additional observations from a re-analysis of the deposited data

How the results depend on the processing

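Over all genes, edgeR called 158 higher and 198 lower; DESeq2 called 633 and 681, edgeR without a low-count filter 667 and 737, limma-voom 102 higher, and edgeR with all 5 libraries 0 higher and 2 lower. Leaving out 1 library gave 0 to 1294 higher and 0 to 1325 lower. Of the 8 members, 2 were lower in the fit reported; 3 were with DESeq2 (Cfb as well), 1 without a filter (Serping1, not C3), 1 with at least 10 counts in all 4 libraries (which removes Serping1 and C4b), 0 with all 5 libraries, and 0 to 4 with a library left out. Of the other complement genes, where the fit reported called 0, DESeq2 called 1 lower, edgeR without a filter 2 lower, and leaving out a library gave 0 to 2 lower. Of the 21 inducers, 1 was lower; scaling by library total gave 2 lower, DESeq2 4 lower and 1 higher, no filter 5 lower, all 5 libraries 0, and leaving out a library 0 to 7 lower and 0 to 1 higher. Of the neighbours, where none was called, DESeq2 and the fit without a filter each gave 1 higher and 1 lower, and leaving out a library 0 to 1 higher and 0 to 2 lower. C4bp ranged from -1.23 without M9, a reversal, to 0.856 without M10, and Il1r1 reversed to 0.138 with all 5 libraries. Of 94 alternative values for the members, 83 kept their side of the threshold, 7 lost a call, 4 gained one and 0 turned a called direction round. With all 5 libraries in 1 fit, the log2 fold change was -3.03 for C3, 1.30 for C4b, 2.20 for Cfi and -0.03 for Cd55, so the sign of the last 3 turned, none of them called. The causes were not tested. Scaling moved the median of all genes by at most 0.042 on the log2 scale. No paired analysis was possible because the columns of the shared table carry no replicate number of the labels. Low counts limit C4b, Cd59a and Serping1 most, and the third co-culture library has no replicate check.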
